A study of Homo sapiens with 16 samples.

Results

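The comparison covered U343 against U251, 2 established human glioblastoma lines, at baseline: total RNA of cells that had received a control microRNA mimic, as 2 libraries per line. These were the 4 control-mimic total RNA libraries of a series of 16, and the genes were the 20314 that stood in the tables of both lines. The cells of all 4 libraries had been transfected with 25 nM of a mimic that is not miR-137 and were collected 48 hours later. The rest of the series holds total RNA after a miR-137 mimic and RNA bound to poly(A)-binding protein (PABP) in the same lines. The lines were compared on lineage genes, receptors, extracellular matrix and tumour suppressors.

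Glioblastoma is a malignant tumour of glial character whose cells range between astrocyte-like, progenitor-like and mesenchymal states, each with its own set of marker genes. Receptor tyrosine kinases on the surface of these cells pass growth signals to the RAS and PI3K pathways, and the secreted matrix together with the proteases that cut it governs how the cells adhere and invade. Tumour suppressors, among them the RB pathway and neurofibromin, act as brakes on growth and are often lost in this tumour, so a cell line is usually described by what it keeps of them.

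RNA depleted of ribosomal RNA was sequenced in 36 cycles, and the libraries of both lines were not made alike. U251 libraries came from random-hexamer priming and a separate reverse transcriptase, U343 libraries from a TotalScript kit, so that kit and line cannot be told apart in any difference below. Reads on the shared genes numbered 16886287 and 18224061 in U251 and 44404345 and 37343855 in U343. The labels number the libraries of a line 1 and 2 without saying that they came from separate cultures, so p-values measure the spread between these libraries, which may be technical. The median absolute log2 ratio between replicates was 0.15 in U251 and 0.11 in U343. Levels are given as CPM, read counts per 1000000 reads on the shared genes after TMM scaling of the library totals, and differences as log2 of U343 over U251 with the standard error from edgeR's quasi-likelihood fit, whose p-values were adjusted by Benjamini-Hochberg over all genes tested. Since CPM does not account for gene length, levels were compared between lines only, never between genes. An exact permutation test of 2 libraries against 2 cannot go below p = 0.333, so no single gene was tested that way. Intervals and floors below cover counting error only, as reads without molecular identifiers are not independent molecules.

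Of the 14787 genes with enough reads to test, 6641 (44.9%) were higher in U343 and 5902 (39.9%) were lower, 84.8% in all. With a 4-fold minimum the counts were 2823 (19.1%) higher and 1718 (11.6%) lower, 30.7% in all. The median log2 difference over all genes was 0.10. With a background this wide, a passed test says little by itself, and the groups of genes below are read against these shares and by size. Genes that code for proteins and overlap no other gene had a median of -0.02 over 11513 tested, whereas 275 long non-coding RNAs had 1.49, 294 pseudogenes 1.86 and 107 snoRNAs -2.20.

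**Figure D1:**
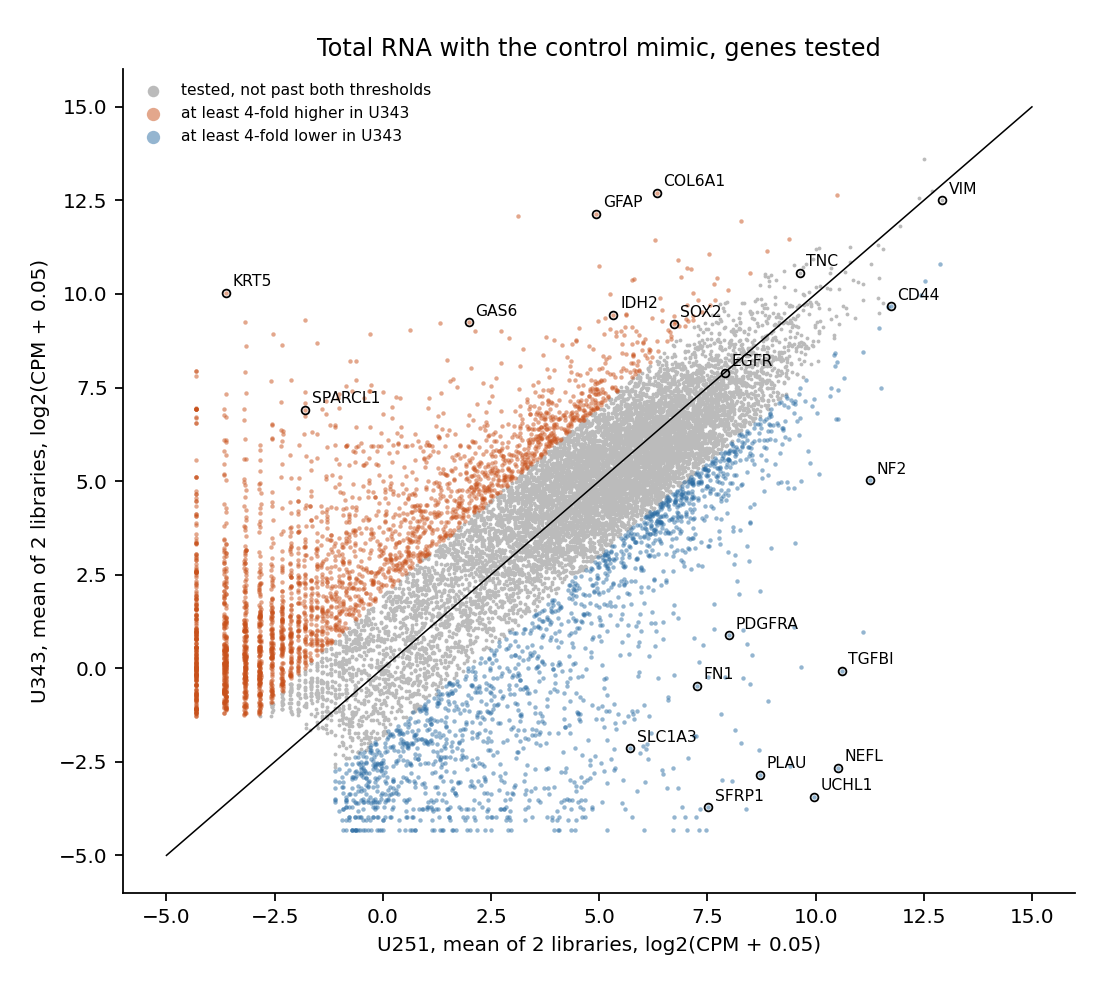
Mean level of each tested gene in the U251 control libraries (horizontal) and in the U343 control libraries (vertical), both as log2(CPM + 0.05), 1 point per gene and n = 2 libraries per axis. Of the named genes, GFAP, COL6A1 and KRT5 lie far above the diagonal, FN1, PLAU and NF2 far below it, and EGFR near it.

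Genes whose span overlaps another gene behaved differently in the tables of both lines. LUZP6 and MTPN, which share a locus on chromosome 7, carried the same reads in every U343 library, 11742 and 9101 in the controls, and 0 reads in each of the 6 U251 libraries. EPR1, annotated on the strand opposite BIRC5, had 1 and 0 against 7547 and 6164 reads in U251 against U343, while BIRC5 itself had 112 and 139.5 against 226 and 226 CPM. Of 149 genes with 0 reads in both U251 controls and at least 50 on average in U343, 61 overlapped another gene, and of the 27 with 0 in all 6 U251 libraries 21 did. The reverse set held 21 genes at 0 in both U343 controls, 3 of them overlapping. Among all 20314 genes, 2109 overlapped another on the opposite strand, 1292 on the same strand, and 16913 overlapped none. Values of overlapping genes named below are therefore uncertain, and their overlap is stated.

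Between 79.4% and 95.7% of the tested members of each list passed the test, beside 84.8% of all genes, and the lists differed in their balance. Progenitor genes leaned towards U343, with a median of 1.71 against 0.10 over all genes. Collagens, mesenchymal genes and cytokine receptors leaned towards U251, with medians of -1.13, -0.69 and -0.52. The others had medians between -0.48 and 0.62, apart from the markers of other cell types at -1.14 over 14 genes and snoRNAs and scaRNAs at -2.15 over 123.

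**Figure D2:**
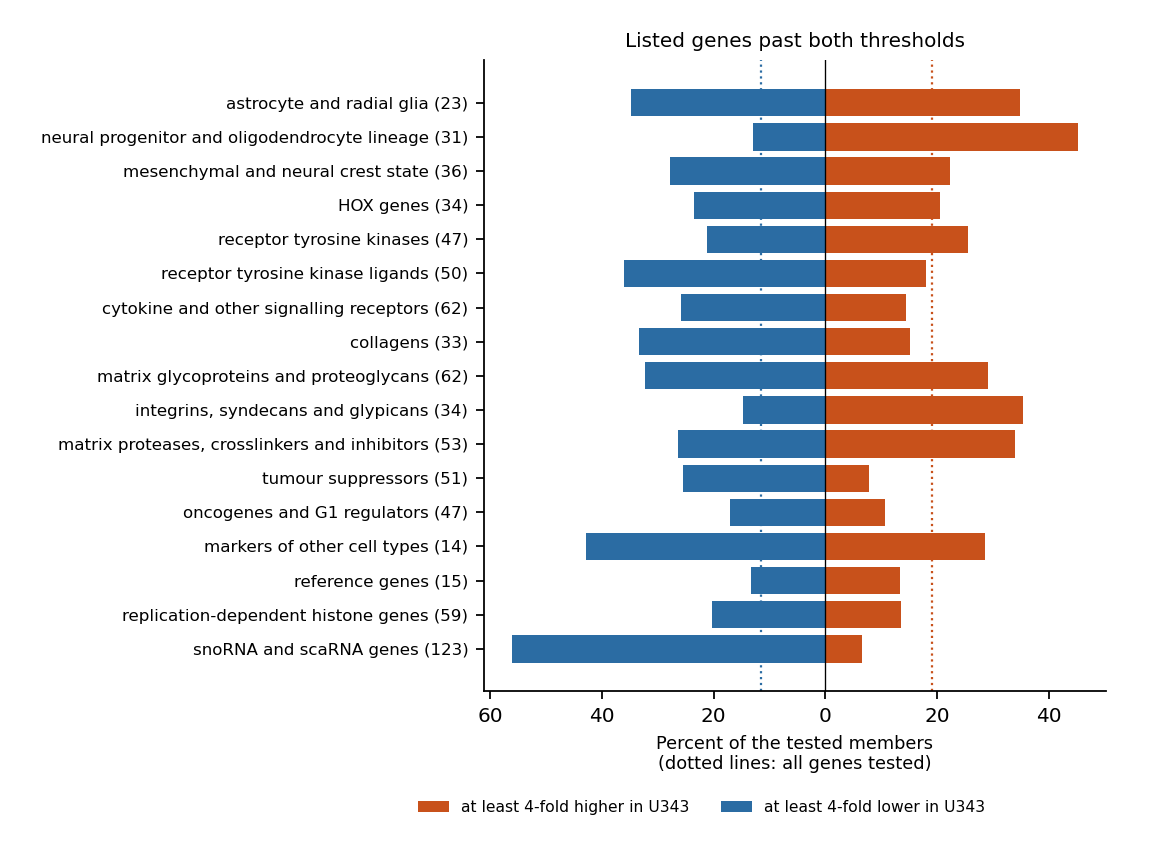
Percent of the tested members of each list (number tested in parentheses) that were at least 4-fold higher (right) or lower (left) in U343 at an adjusted p under 0.05, with dotted lines at the 19.1% and 11.6% of all genes tested. Progenitor genes reach furthest to the right and snoRNA and scaRNA genes furthest to the left.

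Glial lineage separated the lines in both directions. Of 23 tested genes of the astrocyte and radial glia list, 10 were higher in U343 and 12 lower, 8 each by at least 4-fold. The list's median was -0.43. With the miR-137 mimic the sign of the median changed, to 0.84, with 12 of 23 tested higher and 8 lower. In PABP-bound RNA 8 of 23 were higher and 8 lower, with a median of -0.64. GFAP, the intermediate filament of astrocytes (chr17:40338519-40348440 in hg18), stood at 29.7 and 31.1 CPM in U251 and 4421 and 4654 CPM in U343. The groups did not overlap (log2 difference 7.22 ± 0.16, adjusted p = 3.88e-09). AQP4, the astrocyte water channel, had 0 and 0 reads in U251 and 1327 and 596 reads in U343, so that it was at least 253-fold higher in U343 against a floor of 3 reads over the group. AQP4 overlaps C18orf16 on the other strand, and reads of the pair cannot be told apart. MLC1, a membrane protein of astrocyte end-feet, read 0.0609 and 0.289 against 68.0 and 35.9 CPM, with a wide gap between the U343 libraries (log2 difference 8.16 ± 0.53, adjusted p = 8.74e-07). NDRG2, another astrocyte gene, was higher as well, at 1.10 and 0.868 against 26.4 and 25.6 CPM (log2 difference 4.73 ± 0.18, adjusted p = 4.11e-08).

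Several other astrocyte genes were lower in U343, with SLC1A3 and NFIA all but missing from it. SLC1A3, the glial glutamate transporter (chr5:36642214-36724193), stood at 52.5 and 52.7 CPM in U251 and 0.171 and 0.183 CPM in U343 (log2 difference -8.19 ± 0.18, adjusted p = 3.12e-09). NFIA, a transcription factor that switches progenitors to gliogenesis, was at 18.8 and 20.8 against 0.341 and 0.261 CPM, and the log2 difference was -6.00. ID4 and ID3, inhibitors of basic helix-loop-helix factors, differed by -7.02 and -3.37. CD44, the hyaluronan receptor, was at 3734 and 3088 against 769 and 859 CPM (log2 difference -2.07 ± 0.15, adjusted p = 1.45e-06). Nestin (NES), the filament of neural progenitors, was also higher in U251, at 389 and 379.9 against 126 and 135 CPM (log2 difference -1.56 ± 0.09, adjusted p = 4.79e-07). VIM, the filament that both lines carried in quantity, was at 7315 and 8251 against 5544 and 6046 CPM, and its small difference (log2 difference -0.43 ± 0.15, adjusted p = 0.0277) was lost when either U343 library was left out and with upper-quartile normalization. U343 was thus the GFAP- and AQP4-bearing line and U251 the one with SLC1A3, NFIA and ID4.

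Progenitor and oligodendrocyte-lineage genes were more often higher in U343, 21 of 31 tested against 5 lower, with 14 and 4 by at least 4-fold. SOX2, the factor that maintains neural stem cells, was present in both lines, at 113 and 97.9 CPM in U251 and 567 and 618 CPM in U343 (log2 difference 2.49 ± 0.11, adjusted p = 1.01e-07), and shares its span with SOX2OT on the same strand. NKX2-2, a ventral patterning and oligodendrocyte factor, had 0 and 2 against 302 and 280 reads. IRX3, a spinal cord and hindbrain patterning factor, was at 3.11 and 2.20 against 62.7 and 58.8 CPM (log2 difference 4.52 ± 0.16, adjusted p = 2.27e-08). EN2, a midbrain and hindbrain factor, and NEUROD1, a neuronal differentiation factor, were at 0 reads in U251 and at least 37.0-fold and 25.6-fold higher in U343. OLIG2, the defining oligodendrocyte-lineage factor, was not detectable beyond a few reads in either line, 0 and 1 against 1 and 2 reads.

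Progenitor genes on the U251 side included SOX3 and SOX11. SOX3, a relative of SOX2 on the X chromosome, was at 46.7 and 50.6 CPM in U251 and 0.0213 and 0.0261 CPM in U343 (log2 difference -10.78 ± 0.24, adjusted p = 3.5e-09). SOX11, a factor of immature neurons, was at 59.0 and 58.2 against 18.3 and 16.5 CPM (log2 difference -1.75 ± 0.10, adjusted p = 3.81e-07).

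HOX genes, which fix position along the body axis and are silent in normal forebrain, were split within a cluster. Of 34 tested, 14 were higher in U343 and 13 lower, near the 44.9% and 39.9% of all genes tested. In the HOXB cluster on chromosome 17, HOXB2 was at 2.07 and 2.95 CPM in U251 and 77.4 and 91.4 CPM in U343 (log2 difference 5.06 ± 0.17, adjusted p = 2.01e-08), and HOXB4 showed 2.01 and 1.51 against 56.2 and 65.1 CPM (log2 difference 5.11 ± 0.17, adjusted p = 1.89e-08). Their neighbours went the other way. HOXB3 was at 213 and 231 against 36.3 and 41.2 CPM (log2 difference -2.52 ± 0.10, adjusted p = 5.61e-08), HOXB7 at 27.7 and 29.6 against 0.448 and 0.470 CPM, and HOXB6 at 9.32 and 10.0 against 0.0213 and 0.0261 CPM. HOXB13, the cluster's outermost member, differed by -6.61. Outside this cluster HOXD13 and HOXA9 were higher in U343, by 5.28 and 3.77, both at levels of at most 5.03 CPM.

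The mesenchymal and neural crest list leaned to U251, with 22 of 36 tested lower in U343 and 11 higher, 10 and 8 by at least 4-fold. With the miR-137 mimic the lean was gone, with 16 of 38 tested lower and 16 higher and a median of -0.04. In PABP-bound RNA 17 of 38 tested were lower and 9 higher. TGFBI, a matrix protein induced by TGF-β, was at 1687 and 1418 CPM in U251 and 0.832 and 0.965 CPM in U343 (log2 difference -10.76 ± 0.20, adjusted p = 2.02e-09). NT5E, the ectonucleotidase CD73, was at 39.2 and 43.4 against 0.0853 and 0.130 CPM (log2 difference -8.55 ± 0.22, adjusted p = 5.74e-09). RUNX1, a transcription factor of the mesenchymal state, and CTGF, a matricellular growth factor, had log2 differences of -3.76 and -3.25, RUNX1 overlapping C21orf96 on the same strand. Against that direction, CHI3L1, a secreted glycoprotein often used to mark mesenchymal glioblastoma, was at 0.792 and 0.521 against 82.5 and 47.6 CPM (log2 difference 6.63 ± 0.38, adjusted p = 3.64e-07), and CEBPD, a transcription factor of the same state, at 1.83 and 1.85 against 51.7 and 59.3 CPM (log2 difference 4.91 ± 0.15, adjusted p = 1.45e-08). CDH1, the epithelial cadherin, stood at 0.183 and 0.0579 CPM in U251 and 118 and 64.9 CPM in U343 (log2 difference 9.54 ± 0.52, adjusted p = 2.76e-07), and S100A4 differed by 4.06. Summed over the list the levels were 14099 and 13329 CPM in U251 and 7764 and 7688 CPM in U343.

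Markers of cell types that the lines should not contain were at or near 0 with a few exceptions in each line. Only 14 of 32 listed genes had enough reads to test, 6 higher in U343 and 7 lower. KRT5, the keratin of basal epithelia (chr12:51194626-51200510), had 1 and 0 reads in U251 and 59294 and 31738 reads in U343, at 0.0609 and 0 against 1265 and 828 CPM, and it is alike in sequence to other keratin genes. Of these KRT6A had 1 and 5 against 654 and 350 reads. KRT14, the usual partner of KRT5, had 0 and 0 against 3 and 4 reads. The endothelial genes CDH5 and VWF were higher in U343, at 0.183 and 0 against 14.9 and 26.9 CPM and 0.183 and 0.116 against 9.70 and 7.59 CPM. Other endothelial and blood-cell markers stayed low, PECAM1 with 4 and 5 against 30 and 30 reads (a call lost without either U251 library or U343 replicate 2), CLDN5 with 7 and 6 against 10 and 6 reads, PTPRC with 9 and 2 against 2 and 1 reads and CX3CR1 with 0 and 0 against 1 and 2 reads. Summed over the list the levels were 1680.4 and 1740.1 CPM in U251 and 1309.4 and 885 CPM in U343, with 3 members at 0 in U251 and 4 in U343. On the U251 side stood NEFL, the neurofilament light chain, with 1444 and 1494 CPM in U251 and 0.0853 and 0.130 CPM in U343 (log2 difference -13.71 ± 0.21, adjusted p = 1.99e-09). KRT18, a simple-epithelium keratin, was also on the U251 side, with 106 and 119 against 2.41 and 2.53 CPM (log2 difference -5.51 ± 0.12, adjusted p = 3.5e-09). KRT19 and the synaptic SNAP25 differed by -4.70 and -4.57. MLANA, a melanocyte gene, differed by 1.30 on at most 1.43 CPM, and was called neither by DESeq2 nor without U251 replicate 2.

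**Figure D3:**
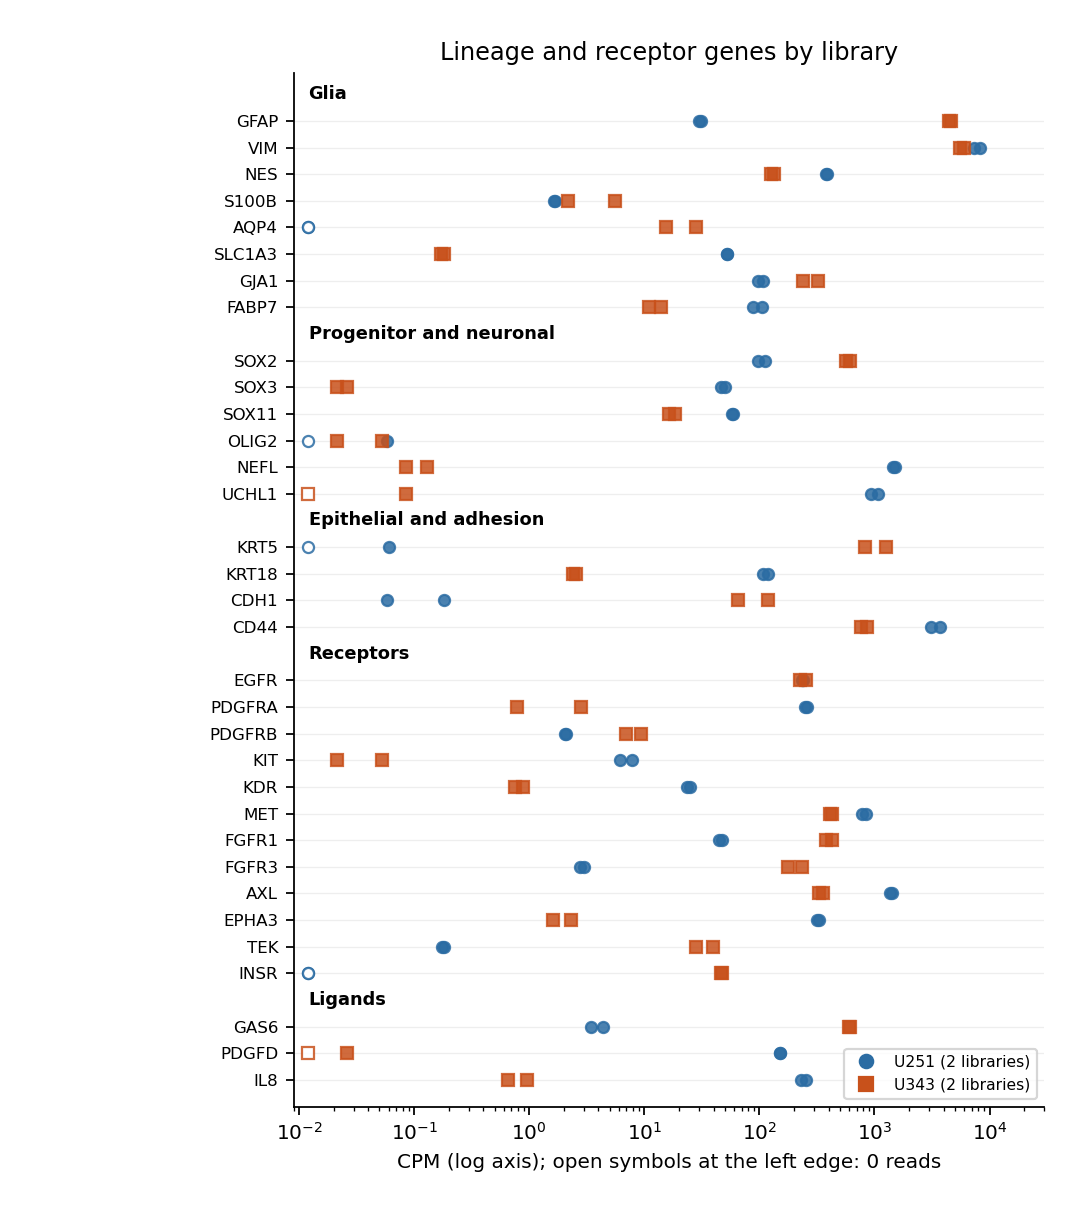
Level of lineage and receptor genes in each of the 4 control libraries, as CPM on a log axis, with 1 symbol per library, circles for U251, squares for U343 and open symbols at the left edge for 0 reads. GFAP, TEK and FGFR3 sit higher in U343, SLC1A3, PDGFRA and KIT higher in U251, and the 4 symbols of EGFR overlap.

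Receptor tyrosine kinases were divided between the lines, 19 of 47 tested higher in U343 and 20 lower, with 12 and 10 at least 4-fold. The list was thus split much as all genes tested were, 44.9% of them higher and 39.9% lower. By at least 4-fold, 19.1% of all genes were higher and 11.6% lower. EGFR, the receptor most often amplified in glioblastoma, did not pass the test, at 237 and 239.7 CPM in U251 and 252 and 224 CPM in U343 (log2 difference 0.00 ± 0.10, adjusted p = 0.992). PDGFRA, the receptor of the proneural subtype (chr4:54790021-54859169), was at 261 and 249.7 CPM in U251 and 2.79 and 0.783 CPM in U343 (log2 difference -7.10 ± 0.35, adjusted p = 1.52e-07). Its neighbours on chromosome 4 were lower in U343 too. KIT, the receptor for stem cell factor, was at 7.86 and 6.19 against 0.0213 and 0.0522 CPM (log2 difference -7.48 ± 0.39, adjusted p = 2.18e-07), and KDR, the VEGF receptor, at 25.2 and 23.7 against 0.875 and 0.756 CPM (log2 difference -4.89 ± 0.17, adjusted p = 2.51e-08). The homeobox gene GSX2 beside them was at 0.975 and 0.926 against 0.171 and 0.0783 CPM, and these 4 genes formed a run of neighbours, each lower by at least 4-fold, between positions 54661005 and 55686519. EPHA3 and EPHB2, receptors for ephrins, differed by -7.33 and -5.34, EPHA3 from 329.9 and 315 against 2.32 and 1.62 CPM. MET was at 780.5 and 839 against 412 and 424 CPM (log2 difference -0.95 ± 0.10, adjusted p = 2.3e-05) and AXL at 1355 and 1433 against 331 and 358 CPM (log2 difference -2.02 ± 0.11, adjusted p = 3.14e-07).

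The kinase receptors of the U343 side were led by INSR, the insulin receptor (chr19:7063266-7245011), with 0 and 0 reads in U251 and 2193 and 1821 reads in U343, at least 529-fold higher against the floor of 3 reads. INSR overlaps no other gene and had 4 and 3 reads in the U251 libraries with miR-137 and 31 and 9 in those of PABP-bound RNA. Why the U251 controls had none was not tested. FGFR3 stood at 2.74 and 3.01 CPM in U251 and 233 and 177 CPM in U343 (log2 difference 6.15 ± 0.19, adjusted p = 1.22e-08), and FGFR1 at 47.6 and 44.6 against 377 and 430.5 CPM (log2 difference 3.13 ± 0.11, adjusted p = 2.58e-08), 2 receptors for fibroblast growth factors. TEK, the angiopoietin receptor, was at 0.183 and 0.174 against 39.4 and 28.1 CPM (log2 difference 7.53 ± 0.33, adjusted p = 8.06e-08). EPHA10 differed by 5.75 on at most 2.07 CPM, and PDGFRB by 1.99, at 2.07 and 2.03 against 9.32 and 6.96 CPM.

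Ligands of these receptors were balanced in number, 22 of 50 tested in each direction, near the 44.9% higher and 39.9% lower of all genes tested. Large differences were more frequent on the U251 side, 18 at least 4-fold against 9, beside 11.6% and 19.1% of all genes. PDGFD, a ligand of PDGFRB, was at 150.0 and 151 CPM in U251 and 0 and 0.0261 CPM in U343. With 1 read in all in U343 its ratio was 12823-fold, 95% interval 2300.4 to 506567, and it overlaps DDI1 on the other strand. NRG1, the ERBB3 ligand neuregulin, was at 421 and 448 against 32.6 and 46.4 CPM (log2 difference -3.46 ± 0.16, adjusted p = 1.25e-07). MDK, a heparin-binding growth factor, and PGF, placental growth factor, had log2 differences of -4.34 and -4.76. GAS6, the ligand of AXL, lay on the other side, at 4.39 and 3.42 CPM in U251 and 602 and 608 CPM in U343 (log2 difference 7.28 ± 0.15, adjusted p = 2.6e-09), as did the related PROS1 at 1.40 and 1.39 against 37.6 and 32.3 CPM (log2 difference 4.64 ± 0.17, adjusted p = 3.67e-08). GAS6 was thus higher in U343 and AXL higher in U251, though U343 also carried AXL, at 331 and 358 CPM. NTF3, a neurotrophin, had 0 and 0 reads in U251 and 436 and 415 reads in U343, at least 112-fold higher, and IL34, a ligand of CSF1R, differed by 7.11.

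Cytokine and other signalling receptors were mostly lower in U343, 33 of 62 tested against 24 higher, beside 39.9% and 44.9% of all genes. S1PR1, a sphingosine-phosphate receptor, was at 343.5 and 336 CPM in U251 and 9.41 and 9.89 CPM in U343 (log2 difference -5.14 ± 0.10, adjusted p = 2.61e-09). LPAR1, a lysophosphatidic acid receptor, had 104 and 129 against 1 and 1 reads, and TNFRSF10A, a TRAIL death receptor, and LTBR, the lymphotoxin receptor, differed by -5.97 and -5.83. TGFBR2, which starts TGF-β signalling, was at 322 and 304 against 63.0 and 59.2 CPM (log2 difference -2.35 ± 0.09, adjusted p = 4.98e-08). LIFR and IL6ST, which together receive leukaemia inhibitory factor, differed by -2.37 and -1.98. On the U343 side CXCR7, a scavenging chemokine receptor, was at 2.74 and 2.72 CPM in U251 and 294 and 308 CPM in U343 (log2 difference 6.78 ± 0.12, adjusted p = 2.02e-09). SMO, the Hedgehog transducer, was at 28.6 and 28.4 against 185 and 177 CPM (log2 difference 2.66 ± 0.09, adjusted p = 2.2e-08), and IL4R, FZD9 and TNFRSF1B were higher as well, IL4R by 3.94.

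Chemokine genes of 1 cluster on chromosome 4 were lower in U343, a run of 4 among the tested genes between positions 74825139 and 75183861. They were chosen after their values were seen. Genes with too few reads to test were skipped in such runs, here CXCL1, which lies between CXCL6 and CXCL3 and had 0 and 0 against 0 and 1 reads. IL8, the neutrophil chemoattractant, was at 228 and 254 CPM in U251 and 0.960 and 0.652 CPM in U343 (log2 difference -8.19 ± 0.16, adjusted p = 2.6e-09). CXCL2 was at 2.13 and 2.14 against 0.0213 and 0.0261 CPM, CXCL3 at 2.62 and 2.14 against 0.619 and 0.391 CPM and CXCL6 at 0.487 and 0.753 against 0 and 0 CPM, and in each the libraries of both lines did not overlap. CXCL2 and CXCL3 are near copies of each other and of CXCL1, so that reads may be shared among them. The promoters of the 4 genes are shown because these lay in 1 run, and that of CXCL1 because it is in the same cluster without a measured difference. All 5 hold the motif GGAATTTCC, a form of the site bound by NF-κB, and they were shown with that known. They are RefSeq sequences of GRCh38.p14, a later build than that of the tables, over 120 bases around each match, which stands in capitals:
IL8: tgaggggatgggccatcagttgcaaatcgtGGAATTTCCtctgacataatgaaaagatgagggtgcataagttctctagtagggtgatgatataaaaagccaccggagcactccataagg
CXCL6: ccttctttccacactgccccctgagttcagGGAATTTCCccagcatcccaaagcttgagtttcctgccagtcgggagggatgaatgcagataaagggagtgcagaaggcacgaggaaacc
CXCL3: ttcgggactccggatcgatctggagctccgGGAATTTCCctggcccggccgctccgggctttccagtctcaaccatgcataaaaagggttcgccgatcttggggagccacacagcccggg
CXCL2: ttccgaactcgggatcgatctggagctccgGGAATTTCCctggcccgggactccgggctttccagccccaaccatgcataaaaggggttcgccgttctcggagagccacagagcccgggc
CXCL1: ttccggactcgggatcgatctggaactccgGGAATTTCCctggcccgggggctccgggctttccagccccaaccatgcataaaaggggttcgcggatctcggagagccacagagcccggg
The motif, the only motif searched, on both strands, occurred in 162 of 35116 RefSeq promoters of 300 bases (0.461%), a background that tests nothing for genes shown with the motif known. It began 91 bases before the gene start in IL8, 89 in CXCL6, 78 in CXCL3 and CXCL1 and 77 in CXCL2. A match of letters is a description and does not show that a factor was bound. Among other inflammatory genes, chosen after their values were seen, CCL2 and IL1B went the other way, at 97.0 and 104 against 179 and 147 CPM and 0.670 and 0.174 against 4.67 and 3.37 CPM, IL6 the same way at 2.80 and 3.18 against 0.149 and 0.183 CPM, and the inhibitor NFKBIA was at 41.7 and 48.9 against 86.4 and 64.2 CPM.

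Collagens changed in kind between the lines. Of 33 tested, 12 were higher in U343 and 17 lower, with 5 and 11 at least 4-fold, and the median log2 difference was -1.13. Summed CPM over the list nevertheless was 2423 and 1950 in U251 and 9497 and 10244 in U343. COL6A1, a chain of the beaded microfibril collagen (chr21:46226091-46249391), stood at 97.8 and 63.4 CPM in U251 and 6352 and 6963 CPM in U343 (log2 difference 6.37 ± 0.25, adjusted p = 4.36e-08). Its partner chains followed, COL6A2 at 47.3 and 28.3 against 953 and 1085 CPM (log2 difference 4.76 ± 0.23, adjusted p = 1.41e-07) and COL6A3 at 14.0 and 12.1 against 304 and 360.3 CPM (log2 difference 4.67 ± 0.14, adjusted p = 1.03e-08). COL9A2, a fibril-associated chain, differed by 5.74, and COL5A3 had 0 and 0 against 1429 and 859 reads, at least 301-fold higher.

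Chains of collagens I and VIII were higher in U251, and those of collagen V were divided. COL1A2, the lesser chain of collagen I (chr7:93861809-93898480), was at 253 and 204 CPM in U251 and 0.0213 and 0.130 CPM in U343, from 4147 and 3521 against 1 and 5 reads. COL1A1, the main chain, was lower as well, at 21.7 and 10.1 against 1.41 and 1.88 CPM (log2 difference -3.28 ± 0.35, adjusted p = 2.39e-05). COL5A1 was at 198 and 138 against 1.66 and 1.30 CPM (log2 difference -6.80 ± 0.22, adjusted p = 1.82e-08), and COL8A1, a network-forming chain, at 189.8 and 173 against 0.704 and 0.887 CPM (log2 difference -7.84 ± 0.15, adjusted p = 2.02e-09). COL4A6 differed by -4.59, and the fibrillar COL11A1 was at 262 and 221 against 871 and 878 CPM (log2 difference 1.86 ± 0.12, adjusted p = 6.95e-07). COL4A1, the common basement membrane chain, did not pass the test, at 212 and 179 against 189.6 and 183 CPM (log2 difference -0.07 ± 0.10, adjusted p = 0.537).

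Matrix glycoproteins and proteoglycans were changed in both directions, 28 of 62 tested higher and 29 lower, 18 and 20 at least 4-fold. Among all genes tested the shares were 44.9% and 39.9%, and 19.1% and 11.6% at least 4-fold. FN1, fibronectin (chr2:215933424-216009036), was at 165 and 141 CPM in U251 and 0.512 and 0.835 CPM in U343 (log2 difference -7.85 ± 0.19, adjusted p = 4.7e-09). THBS2 was at 29.4 and 28.0 against 0.0213 and 0.0261 CPM and POSTN, periostin, at 49.5 and 43.8 against 0.0213 and 0.130 CPM, both matricellular proteins of stroma. IGFBP3, which binds insulin-like growth factors, had 373 and 451 against 0 and 1 reads. On the U343 side SPARCL1, an astrocyte-secreted matricellular protein, was at 0.244 and 0.232 CPM in U251 and 110.2 and 131 CPM in U343 (log2 difference 8.96 ± 0.21, adjusted p = 4.49e-09). EFEMP2, an elastic-fibre protein, was at 1.16 and 1.22 against 155 and 148 CPM and overlaps MUS81 on the other strand, and FBLN1, fibulin, was at 11.3 and 7.58 against 367 and 371 CPM (log2 difference 5.29 ± 0.17, adjusted p = 1.48e-08). SPARC and LAMB2, a laminin chain, differed by 2.28 and 4.21, and LUM, the proteoglycan lumican, had 0 and 0 against 197 and 84 reads. TNC, tenascin-C, was at 877 and 713 against 1529 and 1491 CPM (log2 difference 0.93 ± 0.13, adjusted p = 0.000141); with the miR-137 mimic the log2 difference was 0.00 (adjusted p = 0.999).

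Integrins, syndecans and glypicans leaned to U343, 19 of 34 tested higher against 10 lower, beside 44.9% and 39.9% of all genes tested. The lean was kept with the miR-137 mimic, with 17 of 32 tested higher, 10 lower and a median of 0.94. It was absent in PABP-bound RNA, with 6 of 36 tested higher, 6 lower and a median of -0.13. ITGA4, a fibronectin- and VCAM-binding integrin, was the largest difference of the list on the U251 side, at 65.9 and 67.0 CPM in U251 and 0.0640 and 0.0783 CPM in U343. It overlaps CERKL on the other strand. SDC4 and SDC1, surface proteoglycans, were at 244 and 273 against 29.9 and 32.1 CPM and 327 and 354 against 71.2 and 84.9 CPM, and GPC6 at 103 and 119 against 25.3 and 23.9 CPM. ITGB2, the leukocyte integrin, was higher in U343 on 3 and 3 against 429 and 430 reads, with ITGAX, its partner, at 0 and 1 against 53 and 52 reads. ITGB8 and ITGB5, which bind latent TGF-β and vitronectin, were at 193 and 186 against 832 and 853 CPM and 62.6 and 47.3 against 307 and 372 CPM, and ITGA11 and ITGA7, collagen and laminin receptors, differed by 3.88 and 3.44, ITGA7 overlapping METTL7B.

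Proteases, crosslinkers and inhibitors of the matrix differed in both directions. Of 53 tested, 25 were higher in U343 and 24 lower, beside 44.9% and 39.9% of all genes tested. By at least 4-fold 18 were higher and 14 lower, beside 19.1% and 11.6%. PLAU, the urokinase plasminogen activator (chr10:75340868-75347262), was at 435 and 402 CPM in U251 and 0.0213 and 0.157 CPM in U343 (log2 difference -12.24 ± 0.26, adjusted p = 2.72e-09), and overlaps C10orf55 on the other strand. MMP2, the gelatinase, was at 93.1 and 98.8 CPM in U251 and 0.363 and 0.704 CPM in U343 (log2 difference -7.52 ± 0.19, adjusted p = 6.13e-09). MMP14, the membrane protease that activates MMP2, stood on the other side, at 24.7 and 19.6 CPM in U251 and 415 and 451 CPM in U343 (log2 difference 4.29 ± 0.13, adjusted p = 1.45e-08). HAS2, a hyaluronan synthase, differed by -5.20 and overlaps HAS2AS, and TIMP4, an inhibitor, had 125 and 125 against 0 and 0 reads, inside SYN2. LOXL3, a collagen crosslinker, was at 0.853 and 0.637 against 186 and 153 CPM and overlaps HTRA2. MMP17, ADAMTS9 and TIMP3, a pair of proteases and an inhibitor, differed by 4.92, 4.54 and 4.12, and SERPINH1, the collagen chaperone, was at 48.4 and 50.5 against 692 and 731 CPM (log2 difference 3.85 ± 0.11, adjusted p = 8.81e-09). ADAMTS2 had 0 and 1 against 321 and 290 reads and MMP23B 0 and 0 against 70 and 61 reads.

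**Figure D4:**
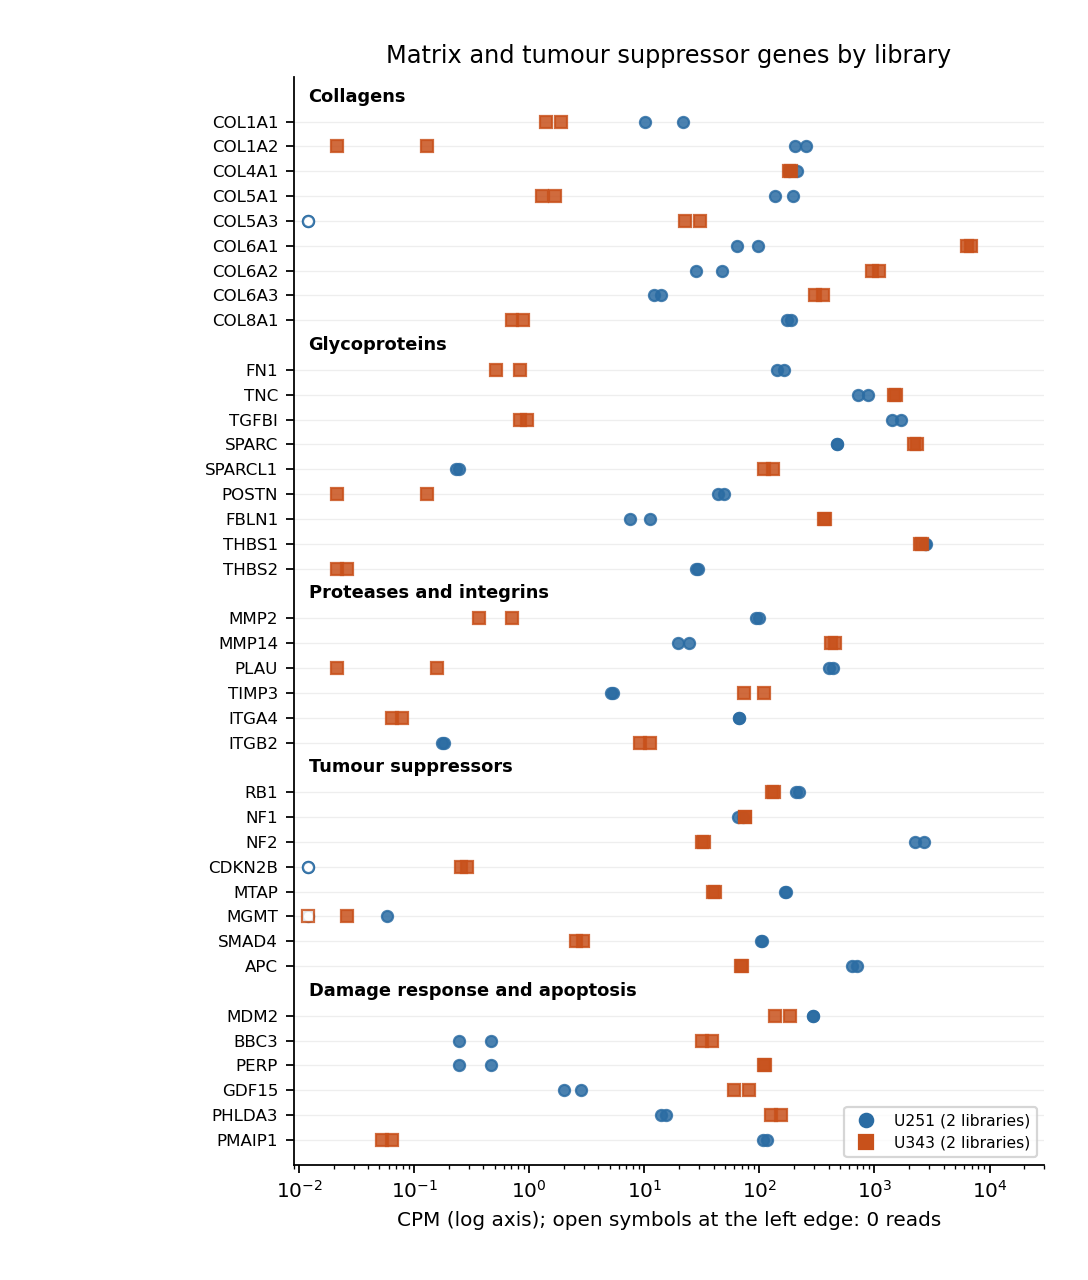
Level of matrix and growth-control genes in each of the 4 control libraries, as CPM on a log axis, with 1 symbol per library, circles for U251, squares for U343 and open symbols at the left edge for 0 reads. Collagen VI chains and MMP14 sit higher in U343, and COL1A2, FN1, PLAU, MMP2 and NF2 higher in U251.

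Tumour suppressors were lower in U343 in 25 of 51 tested and higher in 19, with 13 and 4 at least 4-fold. Over all genes tested these shares were 39.9% and 44.9%, and 11.6% and 19.1% at least 4-fold. Summed CPM was 8414 and 7913 in U251 and 3249 and 3251 in U343. NF2, which codes for the Hippo-pathway protein merlin (chr22:28329545-28424589), carried much of that sum, at 2678 and 2239 CPM in U251 and 32.8 and 31.9 CPM in U343 (log2 difference -6.25 ± 0.16, adjusted p = 5.79e-09). SMAD4, the common mediator of TGF-β signals, was at 104 and 106 against 2.92 and 2.53 CPM (log2 difference -5.26 ± 0.12, adjusted p = 3.61e-09). APC, the β-catenin destruction scaffold, was at 635 and 701 against 68.7 and 70.6 CPM (log2 difference -3.26 ± 0.11, adjusted p = 1.83e-08). LATS1, TET2 and TUSC3 differed by -3.29, -2.45 and -5.86. SFRP1, DKK1 and DKK3, 3 members that code for secreted Wnt inhibitors, were lower in U343. SFRP1 was at 174 and 191 CPM in U251 and 0 and 0.0522 CPM in U343, DKK1 at 287 and 249 against 0.0427 and 0.104 CPM and DKK3 at 57.0 and 51.7 against 0.469 and 0.339 CPM. DLC1, a GTPase-activating protein, was at 31.6 and 34.4 against 0.171 and 0.0783 CPM (log2 difference -7.95 ± 0.24, adjusted p = 1.18e-08). Higher in U343 were PTPRD, a receptor phosphatase, at 0.975 and 0.926 against 32.4 and 31.2 CPM, CDKN1C, a cyclin kinase inhibitor, at 2.74 and 3.94 against 24.0 and 29.9 CPM, and RASSF1 at 4.57 and 3.88 against 18.3 and 19.4 CPM.

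RB1 and NF1, both often lost in glioblastoma, differed by less than 2-fold. RB1 was at 208 and 223 CPM in U251 and 133 and 130.0 CPM in U343 (log2 difference -0.71 ± 0.09, adjusted p = 5.79e-05), with both U251 libraries above both of U343, and overlaps LPAR6. NF1 was at 72.1 and 65.3 against 75.5 and 74.9 CPM (log2 difference 0.13 ± 0.09, adjusted p = 0.201) and passed only with upper-quartile normalization. At 9p21, CDKN2B had 0 and 0 reads in U251 and 12 and 11 reads in U343 and 0 reads in each of the 6 U251 libraries, while MTAP beside it was at 171 and 167 against 40.9 and 39.6 CPM (log2 difference -2.07 ± 0.09, adjusted p = 6.33e-08). CDKN2C had 0 reads in all 12 libraries of both lines, and MGMT, the DNA repair methyltransferase, had 0 and 1 in each line's controls. CDKN2A and CDKN1A are not reported here.

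Single genes of apoptosis and the damage response differed as well, which is no survey of either process. PERP, an apoptosis effector at the membrane, was at 0.244 and 0.463 CPM in U251 and 112 and 109 CPM in U343 (log2 difference 8.26 ± 0.18, adjusted p = 3.44e-09). BBC3, which codes for the BH3 protein PUMA, was at 0.244 and 0.463 against 38.6 and 31.9 CPM (log2 difference 6.61 ± 0.25, adjusted p = 3.89e-08). GDF15, a stress cytokine, was at 2.01 and 2.84 against 60.3 and 80.6 CPM and EDA2R, a death-domain receptor, at 2.44 and 3.13 against 32.8 and 23.1 CPM. BAX, PHLDA3 and the repair factor XPC differed by 3.03, 3.24 and 2.73. On the U251 side was PMAIP1, which codes for the BH3 protein NOXA, at 108 and 117 CPM in U251 and 0.0640 and 0.0522 CPM in U343 (log2 difference -10.80 ± 0.19, adjusted p = 2.02e-09). MDM2, a ubiquitin ligase, was lower in U343, at 290.4 and 293 against 183 and 136 CPM (log2 difference -0.87 ± 0.14, adjusted p = 0.000272), GADD45A at 37.0 and 33.2 against 18.6 and 16.2 CPM and PLK3 at 18.8 and 17.0 against 14.0 and 12.7 CPM, its call lost without U343 replicate 2.

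Of 47 oncogenes and G1 regulators tested, 8 were at least 4-fold lower in U343 and 5 higher, beside 11.6% and 19.1% of all genes. Without the 4-fold minimum 25 were lower and 14 higher, beside 39.9% and 44.9% of all genes. Without U343 replicate 1 or 2 the higher ones numbered 8 and 9. HMGA2, an architectural chromatin factor, was at 88.6 and 70.2 CPM in U251 and 1.19 and 2.69 CPM in U343 (log2 difference -5.39 ± 0.28, adjusted p = 2.02e-07), and overlaps RPSAP52. WWTR1, the Hippo effector TAZ, was at 438 and 409.7 against 47.0 and 56.5 CPM and NRAS at 624 and 640.1 against 100.4 and 96.2 CPM (log2 difference -2.69 ± 0.10, adjusted p = 3.23e-08). PIK3CD, a PI3K catalytic subunit, differed by -3.64 and overlaps CLSTN1, MYC by -1.67 and CDK6 by -1.35. IDH2, the mitochondrial isocitrate dehydrogenase, lay on the U343 side, at 39.8 and 40.4 CPM in U251 and 748 and 651 CPM in U343 (log2 difference 4.12 ± 0.12, adjusted p = 1.07e-08). YBX1, a cold-shock RNA-binding protein, was at 228 and 278 against 1058 and 1149.8 CPM, and GLI1 and BCL2 differed by 3.01 and 2.20.

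Genes used as internal standards were not level either. Of 15 reference genes, 8 were higher in U343 and 6 lower, with a median of 0.62. PPIA and SDHA were at 187 and 234 against 1411 and 1366 CPM and 39.5 and 40.5 against 233 and 232 CPM, GAPDH at 5261 and 6293 against 11739.6 and 13361 CPM (log2 difference 1.12 ± 0.17, adjusted p = 0.000252). GUSB differed by 1.70. TBP, POLR2A, HPRT1 and PGK1 lay on the U251 side, by -2.27, -2.31, -1.35 and -1.07. Histone genes, whose messages carry no poly(A) tail, were scattered, 18 of 59 higher and 31 lower. HIST1H4L was at 0 and 0.0579 against 47.4 and 65.0 CPM and HIST2H3D at 2.74 and 2.14 against 488 and 715 CPM, while HIST1H2BB was at 106 and 86.1 against 0.576 and 0.443 CPM and HIST1H3J at 214 and 185 against 2.00 and 2.03 CPM. HIST1H2AJ and HIST1H2AD differed by 9.04 and 8.44, HIST1H4I and HIST1H4A by -9.64 and -7.27. Histone genes are near copies, so reads may be split among them. Of 123 snoRNA and scaRNA genes, 94 were lower in U343 and 10 higher, and 111 overlap a host gene. SNORD17 was at 212 and 190.3 against 2.67 and 3.76 CPM, SNORA52 at 18.2 and 14.4 against 0.512 and 0.704 CPM and SNORA22 at 10.6 and 14.1 against 0.405 and 0.365 CPM, each inside a host gene, and SNORA74A differed by -6.47. SNORD58B, SCARNA13, SNORD86 and SNORA43 were at 0 in U251 and at least 32.9-, 27.3-, 19.0- and 15.4-fold higher.

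The genes furthest apart over the whole table had almost all their reads in a single line. On the U251 side CNKSR2, a scaffold of RAS signalling, had 2956 and 3008 reads in U251 and 0 and 0 reads in U343, at least 5029-fold. TMEM154, RAB32 and FIGNL1 were at 0 in both U343 controls and at least 4522-, 3697- and 2956-fold higher in U251, RAB32 with 0 reads in all 6 U343 libraries. RAB32 is a GTPase of organelle traffic and FIGNL1 an ATPase of recombination repair. UCHL1, the neuronal deubiquitinase, was at 928 and 1064 against 0.0853 and 0 CPM and ALDH1A3, a retinoic acid synthesizing enzyme that marks mesenchymal glioma stem cells, at 341 and 332 against 0.0213 and 0.0261 CPM. C20orf27 and MT1E, a metallothionein, were at least 1876- and 1030.4-fold higher in U251. PAWR, an apoptosis regulator added after the values were seen, had 2064 and 2213 against 0 and 1 reads.

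On the U343 side HMX1, a homeobox gene of the eye and ear that hg18 places on an unordered contig (chr4_random:279194-283964), had 0 and 0 reads in U251 and 9994 and 8964 reads in U343, at least 2498-fold higher, and 0 reads in all 6 U251 libraries. UGT1A3, UGT1A4, UGT1A8, UGT1A9 and UGT1A10 share exons, and each had 0 reads in both U251 controls, with 0 and 0 reads in U251 and 6549 and 4019 reads in U343 for UGT1A10. NRSN1, a neuronal vesicle protein, had 0 and 0 reads in U251 and 4615 and 5666 reads in U343, but 16 and 11 reads in the PABP-bound libraries of U343. Genes without overlap were added after the values were seen. INPP5D, a phosphatase of blood cells, had 0 and 0 against 5200 and 2947 reads, TMEM98 0 and 0 against 4536 and 3461 reads, FAM107A, an astrocyte stress gene, 1 and 1 against 33947 and 18927 reads, and MIR663 0 and 0 against 1521 and 1388 reads. CYP4B1 varied most between replicates, with 0 and 0 against 2715 and 431 reads.

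Differences were not spread evenly over the chromosomes. Chromosome 16 had a median 0.97 above that of all genes, with 69.2% of its 653 tested genes higher in U343 and 19.3% lower, and chromosome 19 a median 0.87 above. On the other side the offsets were -0.79 for chromosome 14, -0.68 for chromosome 6 and -0.54 for chromosome 15. With the miR-137 mimic the offsets were 0.85 for chromosome 16 and 0.74 for 19, and -0.72, -0.56 and -0.79 for 14, 6 and 15. In PABP-bound RNA they were 0.40, 0.24, -0.49, -0.37 and -0.47. These 5 were chosen as the furthest out in total RNA. Of all 23 chromosomes 21 had the same sign with miR-137 and 19 in PABP-bound RNA, where chromosome 22 went from 0.45 to -0.12, 20 from 0.28 to -0.03, 18 from -0.22 to 0.13 and X from -0.17 to 0.04, while 17 went from 0.52 to 0.07. Gene length, base content and expression differ between chromosomes, and their part in these offsets was not tested.

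**Figure D5:**
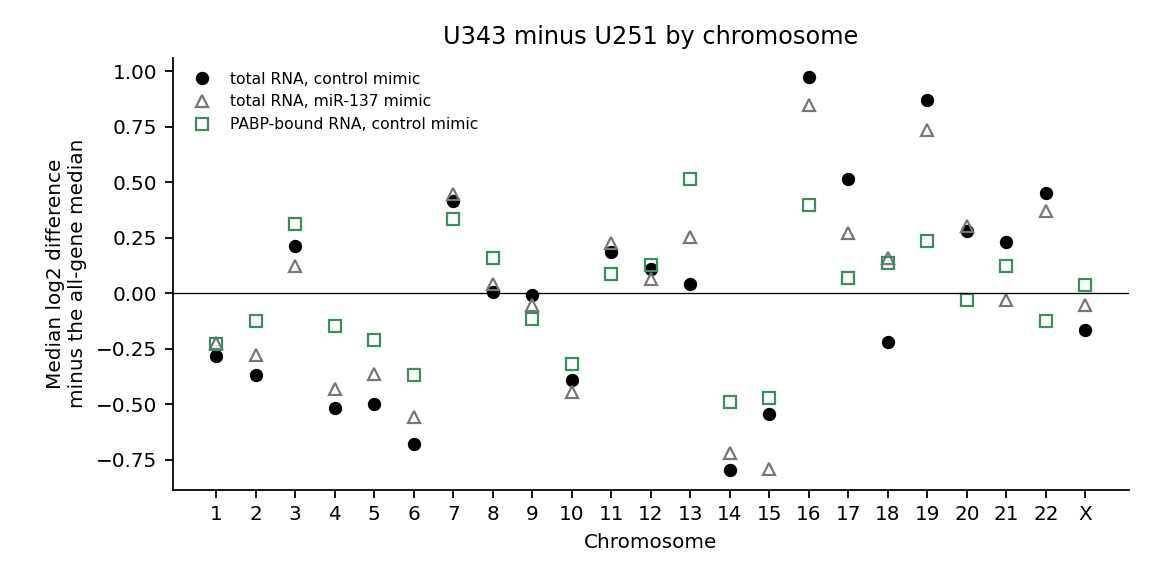
Median log2 difference between U343 and U251 of the tested genes of each chromosome, minus the median of all tested genes, for total RNA with control mimic, total RNA with miR-137 mimic and PABP-bound RNA, n = 2 libraries per line each. Chromosomes 16 and 19 stand above 0 and 14, 6 and 15 below it in all 3.

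Some differences lay in runs of neighbouring tested genes, untested ones between them being skipped. Runs of at least 4 neighbours higher by at least 4-fold numbered 64, with 333 genes, 31 of the runs free of overlapping genes. Runs lower numbered 23, with 102 genes, 14 without overlap. With a minimum of 50 reads on average 33 higher and 2 lower runs were left. The longest run on the U251 side lay on chromosome X between positions 150482663 and 151688896. Its 8 genes, 2 of them overlapping another gene, included cancer-testis genes and GABA receptor subunits. MAGEA3 was at 40.5 and 43.8 against 0.320 and 0.235 CPM and MAGEA6 at 37.3 and 35.5 against 0.171 and 0.261 CPM, though these are near copies and may share reads, MAGEA12 at 19.8 and 22.5 against 0.0640 and 0.0783 CPM, CSAG1 at 22.6 and 27.7 against 0.0640 and 0.0783 CPM and the receptor subunit GABRA3 at 8.47 and 9.84 against 0.576 and 0.183 CPM. The imprinted genes MEG3 and RTL1 on chromosome 14 had 92 and 53 against 1 and 0 reads and 64 and 32 against 0 and 2 reads. They lay in a run of 6 genes, 3 of them overlapping another gene. On the U343 side the longest runs were the protocadherin clusters on chromosome 5, 18 PCDHG genes and 15 PCDHA genes whose spans all overlap. Next came 12 genes on chromosome 7 between positions 149043081 and 150342619, 3 of them overlapping another gene. Runs of 10 genes lay at the UGT1A locus on chromosome 2, all overlapping, and on chromosome 8, where 5 overlapped. In the protocadherin and UGT1A runs the same reads may stand under several genes.

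Both lines were also measured in PABP-bound RNA and in total RNA with the miR-137 mimic. In PABP-bound RNA 2871 of 15138 genes tested were higher in U343 (19.0%) and 2494 lower (16.5%). These counts rested on single libraries, with 6078 and 6343 higher and 5708 and 5807 lower without U251 replicate 1 or 2, and 1407 and 1361 higher and 949 and 901 lower without U343 replicate 1 or 2. With the miR-137 mimic 5693 (37.6%) of 15132 genes were higher and 5116 (33.8%) lower, the latter 3408 without U251 replicate 1. Of the 2823 genes higher by at least 4-fold in the controls, 2765 were tested in PABP-bound RNA, where 96.6% had the same direction and 64.2% passed in it, and 1 passed in the other. Of the 1718 lower genes 1567 were tested, 99.8% with the same direction and 80.2% past the threshold. With miR-137 the shares past the threshold were 92.3% and 95.4%, with 4 and 12 genes passing the other way. These libraries share the lines and the kits, so they test neither apart. GFAP read 9.34 (adjusted p = 0.000873) in PABP-bound RNA and 10.01 (adjusted p = 1.01e-05) with miR-137, PDGFRA -6.78 (adjusted p = 0.00218) and -6.28 (adjusted p = 1.65e-05), COL6A1 4.11 (adjusted p = 0.00288) and 5.31 (adjusted p = 1.03e-05), FN1 -9.07 (adjusted p = 0.000779) and -8.44 (adjusted p = 0.000448), NF2 -5.69 (adjusted p = 0.000829) and -3.95 (adjusted p = 2.06e-05), as log2 differences. MET and RB1 did not pass in PABP-bound RNA, at -0.77 (adjusted p = 0.303) and -0.06 (adjusted p = 0.95), but neither passed the test of the difference between both kinds of RNA. That test was passed by 595 of 15649 genes (3.80%), 137 more positive in PABP-bound RNA and 458 more negative, the total RNA in this fit being the same 4 control libraries.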

How the data were processed

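Per the labels, total RNA of both lines was depleted of ribosomal RNA, made into libraries with Nextera and sequenced on a GAIIx. The authors mapped reads with RMAP to hg18 and deposited read counts per RefSeq gene, with no normalization. Genes were matched by name between both lines' tables, and 1 gene listed on more than 1 line of the U251 tables was taken from its first line. Counts as deposited were tested with edgeR 4.0.16 in R 4.3.3 (TMM, filterByExpr, quasi-likelihood, adjusted p under 0.05), with DESeq2 1.42.0 and other alternatives beside it, and the fits were tested on simulated data. The PABP-bound and miR-137 libraries were fitted the same way, and the interaction over the control libraries. Lists and members were chosen with earlier results of these data known. Genes given with values were a set chosen irrespective of level, up to 4 per list and direction with the largest difference (adjusted p under 0.05, at least 50 reads on average in the higher line, no overlap of groups) and the 10 largest over all genes in each direction. Some genes of the first set and of the lists, and 1 list, are not reported here. Others were added after their values were seen, to show neighbours, pathway partners and genes at similar levels. A gene at 0 in a line was set against a floor of 3 reads over the group, and 95% intervals are exact. Python 3.11.15 with SciPy 1.17.1 did the rest.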

Additional observations from a re-analysis of the deposited data

Results flagged for a closer look

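The line difference was larger or smaller in PABP-bound RNA than in total RNA for 29 of the 249 genes tested among those given with values above, by edgeR's test of the interaction over the 8 control libraries, where 3.80% of all genes passed. Many of these genes were named for a large difference in total RNA, and the same total RNA libraries enter this test. The values are the log2 difference in PABP-bound RNA minus that in total RNA. More negative in PABP-bound RNA were 23 genes, beside 458 of the 595 that passed over all genes. Several were genes of inflammation. IL8 changed by -5.64 (adjusted p = 0.023), from a log2 difference of -8.19 in total RNA to -13.84 in PABP-bound RNA. CXCL3 changed by -4.02, IL1B by -3.77 and CCL2 by -3.32, and CCL2 was higher in U343 in total RNA and lower in PABP-bound RNA. IL4R and S1PR1, receptors of the list, changed by -3.05 and -1.81. Among matrix genes MMP17 changed by -2.09, COL8A1 by -1.85, MMP14 by -1.70, COL6A3 by -1.56, CTGF by -1.43, TNC by -1.26, SPARC by -1.16 and ITGB5 by -1.98. Among lineage and growth genes MDK by -2.89, S100A4 by -2.60, FGFR3 by -2.46, SOX11 by -2.28, HOXB3 by -1.67 and PIK3CD by -1.59 changed the same way.

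The widest of these gaps belonged to genes with few reads in a group. For NRSN1, NEUROD1 and AQP4 the fitted values were -14.14, -8.46 and -7.65, but each had 0 reads in both U251 total RNA libraries, so that these values depend on the fit's prior count and are not measured sizes. AQP4 had 19 and 15 against 898 and 742 reads in PABP-bound RNA, NEUROD1 3 and 3 against 9 and 8, and NRSN1 6 and 3 against 16 and 11. More positive in PABP-bound RNA were 6 genes. GFAP changed by 2.05 (adjusted p = 0.0481), from a log2 difference of 7.22 in total RNA to 9.34 in PABP-bound RNA. SNORA22 changed by 5.11, ARMCX2 by 1.72, POSTN by 4.59, SNORA52 by 3.52 and HIST1H2BB by 3.38. The sizes for SNORA22, SNORA52, HIST1H2BB and POSTN rest on few reads in PABP-bound RNA. GFAP had 287 and 194 reads in U251 against 226370 and 301017 in U343 in that RNA. ARMCX2 had 30 and 30 against 3904 and 3733 in PABP-bound RNA, few in U251. There SNORA22 had 2 and 6 reads in U251 against 8 and 7 in U343, and SNORA52 3 and 4 against 3 and 2. HIST1H2BB had 37 and 27 against 3 and 3, and POSTN 55 and 117 against 8 and 3.

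The tables of U343 hold 312 genes that those of U251 do not. Their reads made up 1.62% and 1.60% of the U343 control libraries. These genes entered no comparison.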

How the results depend on the processing

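Counts, list counts and chromosome offsets stayed within 1.5 times, or within the spread, of the reported values in 549 of 584 recomputations, and of 246 genes given with values 239 kept their side of the threshold under every alternative, the others being KRT6B, MLANA, NF1, PECAM1, PLK3, S100B and VIM. No direction reversed. The rule of the study's methods, Fisher's exact test in all 4 pairs of libraries, gave 4066 genes higher and 2747 lower. With at least 50 reads on average, lower genes numbered 8 of the HOX list, 13 receptor tyrosine kinases, 14 of their ligands, 11 collagens and 23 snoRNAs, higher ones 3 markers of other cell types and 3 snoRNAs, chromosome offsets from the all-gene median were 0.87 for 16, -0.74 for 14 and -0.63 for 6, and runs numbered 33 higher and 2 lower. Without overlapping genes, an alternative chosen after seeing the data, snoRNAs higher and lower numbered 1 and 8, runs lower 15, and chromosome 6 had an offset of -0.67. The pairwise ratios also gave -0.67 for chromosome 6. Without a filter 41 runs were higher, and with upper-quartile normalization 15 were lower. Oncogenes higher were 9 in the joint fit of 8 libraries and 9 with U343 thinned to the depth of U251. Leaving out 1 library at a time gave 6168 to 6425 genes higher and 5465 to 5733 lower, 8 to 12 oncogenes higher, 3 to 5 markers of other cell types higher, 1361 to 6343 higher and 901 to 5807 lower in PABP-bound RNA, and 3408 to 5412 lower with miR-137; the lone library of an arm is then assumed to vary like the other line's. The cause of these shifts was not tested, beyond fewer genes or libraries entering. The replicate numbers did not pair the libraries (correlation of same-numbered deviations -0.00073), and with the replicate number as a block 6617 genes were higher and 5886 lower, and 2695 and 2270 in PABP-bound RNA. The all-gene median moved from 0.10 to 0.21 with upper-quartile normalization and 0.09 with DESeq2, and the share of calls that were higher from 52.9% to 55.6% and 52.2%. A correction for GC content and length was not run, since exonic values were not at hand for these genes. U343 libraries were deeper, so genes with few reads in U251 are limited most by depth.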

Other observations

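Of 523 tested genes on chromosome X, 95 were at least 4-fold higher in U343 and 100 lower, beside 19.1% and 11.6% of all genes. Without the 4-fold minimum 42.1% were higher and 45.9% lower, beside 44.9% and 39.9%. Lower genes thus took a larger share on chromosome X than over all genes. Near each other on it, genes of the ARMCX family and its neighbours lay on both sides. ARMCX5 was at 14.7 and 13.1 against 0 and 0.0261 CPM, BHLHB9 at 9.20 and 8.10 against 0.0853 and 0.235 CPM and BEX1, a neural gene of the same region, at 8.41 and 11.1 against 0.0213 and 0 CPM, each with libraries of both lines apart. GPRASP1 differed by -5.17. ARMCX2 and ARMCX6 were higher in U343, at 5.60 and 4.81 against 128 and 103 CPM and 5.18 and 5.04 against 39.5 and 36.8 CPM. Organic anion transporters on chromosome 12 lay on the U251 side, with SLCO1B3 at 49.6 and 46.1 against 0.427 and 0.209 CPM and SLCO1C1, a thyroid hormone transporter of brain vessels, at 7.31 and 6.60 against 0.0213 and 0.0261 CPM; members of this family are alike in sequence, so reads may be shared. PRKAA2, a catalytic subunit of the energy sensor AMPK, was at 144 and 144 against 11.8 and 15.0 CPM (log2 difference -3.43 ± 0.13, adjusted p = 3.18e-08, edgeR). These genes were chosen after their values were seen.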
